A study of Arabidopsis thaliana with 4 samples.

Results

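The comparison described here is between roots of Arabidopsis thaliana that had spent 48 h and 96 h in fresh full nutrient solution, measured on 2 of the 4 arrays of the study. Both samples were chosen by their labels as the untreated controls, and 14197 of the 22746 probe sets without the array's own controls were compared, those whose signal on either array lay at or above that array's 40th percentile. The study set roots kept in full solution beside roots moved to a solution without potassium, at the same 2 times. All plants were of the accession Col-0, 4 to 5 weeks old, raised in hydroponics with a 16 h photoperiod at 22 °C, and each RNA came from a mix of roots.

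Control plants were moved from full solution into the same full solution, which held 1.25 mM potassium nitrate and 0.5 mM potassium phosphate. Starved plants went into a solution in which both potassium salts were replaced by nitric and phosphoric acid. The control plants had therefore been through a transfer and a change of medium too, and the 48 h and 96 h samples differ only in the time since then, as far as the labels say. The array is the Affymetrix ATH1, on which a probe set of short oligonucleotides reads 1 transcript or a few near-identical ones. Each group is 1 array, so there are no replicates: a difference between the 2 control arrays has no error or p-value of its own, and none can be set against the spread between plants.

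Roots in standing solution depend on oxygen that dissolves in the medium. When oxygen runs short, plant cells stabilise a group of ethylene response factors, which switch on fermentation, a small set of proteins of the core response to low oxygen and a repressor that limits that response. Root hair cells, by contrast, are known for a large set of wall proteins, among them extensins, class III peroxidases and expansins, which loosen, feed or cross-link the growing wall. Root plastids are mostly non-green, and carry the same genome as the chloroplasts of leaves.

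Differences are given as log2(signal + 16) at 96 h minus 48 h, where the added 16 damps differences among dim probe sets, and folds are taken on that same scale. At 96 h 176 probe sets were at least 2-fold higher (1.24% of those compared), and 58 were at least 2-fold lower (0.409%). At least 4-fold differences numbered 29 upward and 3 downward. The median difference was -0.01, 48.1% of the probe sets lay above 0, and 91.8% lay within 1.5-fold of equality. A single gene was annotated to 7701 of the probe sets compared, which gave 7618 genes, with 88 past 2-fold upward (1.16%) and 30 past 2-fold downward (0.394%). The remaining probe sets could not be tied to 1 gene here.

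The filter shaped some of these counts. Of the probe sets compared, 13099 reached the 40th percentile on both arrays, and 120 of those were at least 2-fold higher (0.916%) and 38 lower (0.29%). Another 549 passed only at 96 h and included 56 of the higher ones, and 549 passed only at 48 h and included 20 of the lower ones. The last probe set inside the limit, 261152_at, read 25.2 at 48 h and 29.4 at 96 h, and the first one outside it, 256213_at, read 26.4 and 29.4.

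The brightest probe sets and the array's own controls were lower on the 96 h array. Among 400 probe sets with a mean signal of 1000 or more, 320 lay below 0 and the median difference was -0.22, against -0.05 for the same probe sets in starved roots. Between 500 and 1000 the median was -0.09, and in all dimmer classes it lay between -0.03 and 0.01. All 18 probe sets for the hybridisation controls bioB, bioC, bioD and cre, which are added to each sample in the same amount, read lower at 96 h, at 0.506 to 0.93 of their 48 h signal, while in the starved pair the ratios ran from 0.848 to 1.14. For plant actin, GAPDH and ubiquitin, 15 of 16 control probe sets were lower, with a median ratio of 0.871. In the starved pair these went the other way, with 1 of 16 lower and a median ratio of 1.15. Whether these array differences contributed to any difference below was not tested, and an intensity-dependent rescaling (cyclic loess) is given where it matters. The middle signal of an array hardly differed, with medians of 47.2 and 47.0.

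**Figure D1:**
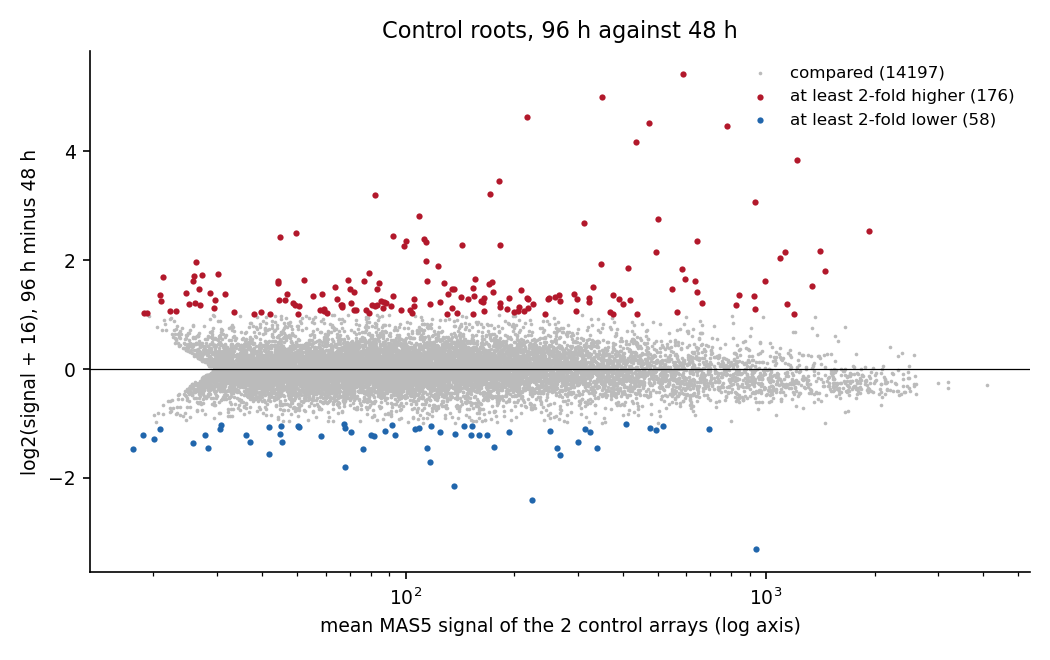
Difference between the control arrays (log2(signal + 16), 96 h minus 48 h) against the mean signal of the 2 arrays on a log axis, 1 point per probe set. The 176 probe sets at least 2-fold higher reach 5.40, the 58 at least 2-fold lower reach -3.30, and the brightest probe sets lie mostly just below 0.

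Among the named genes, those of the low-oxygen list had the highest differences. The list holds 53 genes that low oxygen induces in many cell types, of which 28 had a probe set of their own and 26 passed the filter. At 96 h the signal of 18 of the 26 (69.2%) was at least 2-fold higher, and that of none was 2-fold lower, beside 1.16% and 0.394% of all named genes, 24 lay above 0, and the median was 1.54. All 11 named genes that were at least 4-fold higher belonged to this list, as did 13 of the 25 genes with the highest differences. Only 14 of those 25 had passed the filter on both arrays. Among the 11, AT3G29970, AT5G10040, AT4G33560, AT4G24110, AT2G15880 and AT3G10040 had passed only at 96 h, where they were high. Of the 26, 19 had passed the filter at both times, and 11 of those were at least 2-fold higher, with a median of 1.33 over the 19. The other 7 had passed only at 96 h, where lying above 0 follows from the filter. The arrays read RNA from whole roots, so more cells with the transcript and more transcript per cell cannot be told apart.

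The largest difference belonged to AT3G29970, a B12D family protein, whose signal was 11.8 at 48 h and 1161 at 96 h, a difference of 5.40. AT5G10040 read 6.54 and then 697, a difference of 4.98. AT2G17850, a rhodanese family protein, went from 31.9 to 840, a difference of 4.16. At 48 h all of them were near or below the 40th percentile of 29.6, and at 96 h they lay far above the array's median of 47.0.

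The regulator and the fermentation enzymes that could be read here differed less than these. The fermentation genes ADH1 and PDC1 had no probe set of their own, so they were not read. HRA1 (AT3G10040), the trihelix repressor that limits the low-oxygen response, read 27.2 at 48 h and 201 at 96 h, a difference of 2.33. HRA1 had passed the filter only at 96 h. PDC2, a pyruvate decarboxylase that makes acetaldehyde in ethanolic fermentation, read 519 and 1331, a difference of 1.33. Lactate dehydrogenase (AT4G17260), the enzyme of lactic fermentation, read 286 and 484, a difference of 0.73 that stays under 2-fold. PDC2 and lactate dehydrogenase were thus already measured well above the array's median at 48 h. CML38, a calmodulin-like calcium sensor found in the RNA granules of low-oxygen roots, read 105 at 48 h and 313 at 96 h, a difference of 1.44.

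Some genes for universal stress proteins, small nucleotide-binding proteins of stressed cells, were among the 25 highest differences. The ones below were picked from there and lay above the array's median at both times. The family was not scored as a whole, so level or lower members were not counted. HRU1 (AT3G03270), the family member of the low-oxygen list, read 404 and 1850, a difference of 2.15. AT2G47710, another member outside the list, read 136 and 560, a difference of 1.92. AT3G11930, likewise outside the list, read 480 and 1505, a difference of 1.62. So the low-oxygen list does not hold all of the stress proteins with high differences.

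Some list members hardly differed. AT1G19530, a bright transcript, read 1302 and 1872, a difference of 0.52. AT3G10020 read 323 and 354, a difference of 0.13. AT4G39675 at -0.04 and AT5G27760, annotated as a hypoxia-responsive protein, at -0.05 were the only members below 0. The list as a whole was therefore uneven, with differences from -0.05 to 5.40.

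**Figure D2:**
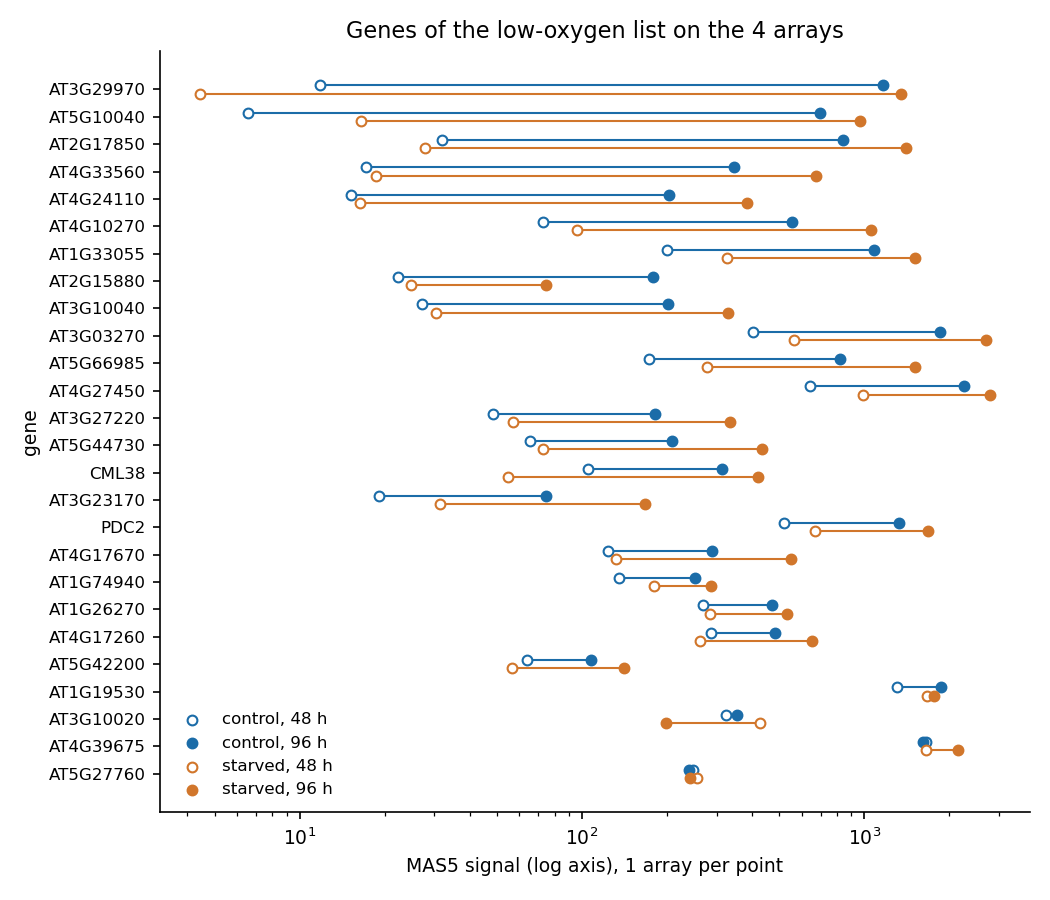
MAS5 signal (log axis) of the 26 measured genes of the low-oxygen list on the 4 arrays, open circles at 48 h and filled circles at 96 h, control in blue and starved in orange, 1 array per point. In control roots 24 of the 26 filled circles lie to the right of the open ones, and the 2 genes with the highest control differences start at 11.8 and 6.54 at 48 h.

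The same genes were read over the same interval in roots without potassium. The 2 starved arrays are separate samples that share no array with the control pair. There the list median was 2.05, with 20 members at least 2-fold higher and 1 lower, beside 1.7% and 0.929% of all probe sets compared there. AT3G10020 was that lower one, at 428 and then 199 (-1.05), while it read 323 and 354 in control roots. AT2G15880 stood out the other way, with 22.3 and 178 in control roots (2.34) against 24.9 and 74.6 in starved roots (1.15). On the control arrays AT2G15880 had passed the filter only at 96 h.

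The glycolytic enzymes that could be read were not high along with PDC2. The list holds 20 genes, of which only 7 had a probe set of their own. Of 7 genes compared, 2 lay above 0 and 5 below, none was 2-fold different, and the median was -0.32, against 0.21 in starved roots. AT1G20950, a subunit of pyrophosphate-dependent phosphofructokinase, read 476 at 48 h and 294 at 96 h, a difference of -0.67. Another subunit of that enzyme, AT1G12000, read 369 and 248, a difference of -0.54. GAPC2, a cytosolic glyceraldehyde phosphate dehydrogenase, read 2449 and 2536. TPI, triose phosphate isomerase, read 1939 and 1543, a difference of -0.33. With cyclic loess scaling the list median was -0.14.

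Most transcripts of the chloroplast genome lay above 0. This genome had 69 genes with a probe set, of which 59 were compared, and 45 of those lay above 0. Of these 59, 10 were at least 2-fold higher (beside 1.16% of named genes) and none lower, with a median of 0.47. Among the 55 past the filter on both arrays, 42 lay above 0, with the same 10 past 2-fold and a median of 0.40. In starved roots 45 of the 59 also lay above 0, with a median of 0.26 and 1 gene at least 2-fold higher. The plastid transcripts therefore made up 10 of the 88 named genes that were at least 2-fold higher in control roots.

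By complex, the photosystem I genes had a median of 1.18 over 5 genes and the ATP synthase genes 0.84 over 5. Photosystem II stood at 0.27 over 14 genes and the plastid ribosome at 0.22 over 13. The cytochrome b6f genes were the exception, at -0.07 over 5. Within photosystem I, psaA, a reaction centre subunit, read 34.5 at 48 h and 98.6 at 96 h (1.18), and its partner psaB read 105 and 282 (1.31). The catalytic ATP synthase subunits atpA and atpB read 121 and 316 (1.28), and 394 and 932 (1.21).

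Followed along the plastid genome, the 59 measured genes formed 19 runs on 1 side of 0. Runs above 0 reached 8 genes, from ccsA to rps15, and 6 of them had 4 genes or more. Since 45 of the 59 genes lay above 0, long runs above 0 can arise in any gene order, and run lengths were not tested. Some runs were also broken by genes very near 0, such as petB at -0.0015 and rbcL at -0.01. Within the run from accD to psbJ the neighbours accD, psaI, ycf4 and cemA, which encode a carboxylase subunit, a photosystem I subunit, a photosystem I assembly factor and an envelope protein, had differences of 1.23, 1.26, 1.02 and 1.31. The only run of 4 genes below 0 was petL, petG, psaJ and rpl33, at -0.41, -0.89, -0.65 and -0.40, and it lay below 0 in starved roots too, at -0.42, -0.54, -0.59 and -0.20. Neighbours were read from the gene order of RefSeq TAIR10.1. Other genes hardly differed, among them rbcL, the large subunit of Rubisco, at 67.3 and 66.5, and petB at 872 and 871.

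**Figure D3:**
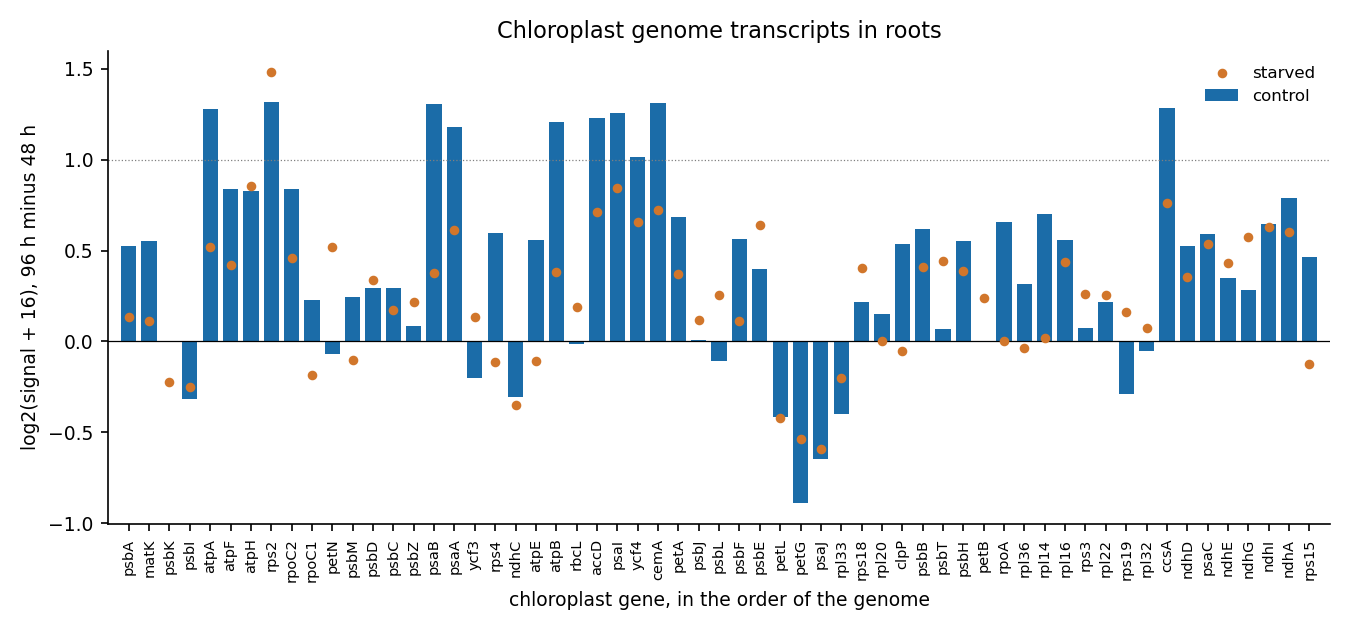
Difference of each of the 59 chloroplast genome transcripts, in the order of the genome, as log2(signal + 16) at 96 h minus 48 h, with bars for control roots and points for starved roots, 1 array per group and time. The dotted line marks 2-fold, which 10 control bars pass, and the run from petL to rpl33 lies below 0 in both solutions.

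Nuclear genes for photosynthesis were used as markers of green tissue. Of 54 genes listed, 10 had a probe set of their own and 9 were compared. All 9 lay above 0 in control roots, 1 was at least 2-fold higher (beside 1.16% of named genes), and the median was 0.66, against 0.41 in starved roots with 7 of 9 above 0. Summed over their 10 probe sets, the 48 h and 96 h signals came to 847 and 1393 in control roots, and to 940 and 1159 in starved roots.

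LHCB4.2, an antenna protein of photosystem II, read 63.3 and 145, a difference of 1.02. Its relative LHCB4.1 read 183 and 336 (0.83) in control roots but 218 and 198 (-0.13) in starved roots. RCA, the Rubisco activase, read 134 and 237 (0.76). All 9 passed the filter on both control arrays. Whether green tissue had a part in the plastid differences was not tested.

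Mitochondrial genome transcripts were taken only where the name began with nad, cox, ccb, matR or orfX, so others of that genome were left out. Of 16 such transcripts with a probe set, 9 were compared. Of these, 5 had passed the filter only at 96 h, and so lay above 0 by the choice of the filter. The other 4, bright enough on both arrays, had a median of 0.90, and 2 of them were at least 2-fold higher (beside 1.16% of named genes). These were ccb452, at 43.3 and then 118, and ccb382, at 101 and then 230, both of which encode parts of the machinery for making cytochrome c. The remaining ones of the 4 were cox1, a subunit of cytochrome oxidase, at 44.5 and 84.1, and nad4, a subunit of respiratory complex I, at 72.4 and 112. In starved roots both were nearly level or lower, at -0.03 and -0.29.

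Several of the lower named genes encode secreted proteins. The lowest difference was that of AT5G26130, a cysteine-rich secreted protein of the CAP family to which the pathogenesis-related protein PR1 belongs, which read 1714 at 48 h and 160 at 96 h, a difference of -3.30. In starved roots it read 1007 and 37.4, a difference of -4.26. The only other named gene at least 4-fold lower was PDF2.1, a plant defensin, at 389 and 60.3 (-2.41), with 624 and 172 in starved roots.

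Of 13 defensin genes with a probe set 4 were compared. All 4 lay below 0, 2 of them at least 2-fold lower (beside 0.394% of named genes), with a median of -0.89 in control and -0.76 in starved roots. With the 9 genes that did not pass the filter included, the median turned to 0.0122. PDF2.5 read 553 and 265, LCR69 read 2129 and 1244, and LCR68 read 1495 and 933. Another lower transcript of this kind was AT4G11190, a dirigent protein, a family that steers the coupling of phenolic radicals, at 33.3 and 1.79. It had passed the filter only at 48 h, so that lying below 0 followed from the filter. AT1G70880, of the Bet v 1 family of small ligand-binding proteins, read 505 and 174, and AT3G05950, a germin-like protein, read 651 and 300.

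Genes of wall modification were also among the lower ones. AT5G62340, a pectin methylesterase inhibitor family protein, read 437 at 48 h and 163 at 96 h (-1.34). AT4G08380, an extensin-like wall protein, read 409 and 126 (-1.58). XTH26, an enzyme that cuts and rejoins xyloglucan, read 60.04 and 14.2 (-1.33), and was the only one of 9 members of its family at least 2-fold lower, though it passed the filter only at 48 h. Of those 9, 8 lay below 0 and the median was -0.44, against -0.49 in starved roots.

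Expansins, which loosen the wall during growth, had 9 of 12 members below 0 and a median of -0.45, against -0.22 in starved roots. None differed 2-fold. EXPA15 came closest, at 154 and 69.5 (-0.99), and the expansin-like EXLA1 read 180 and 89.9 (-0.88). EXPB2 was the highest member, at 0.31.

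**Figure D4:**
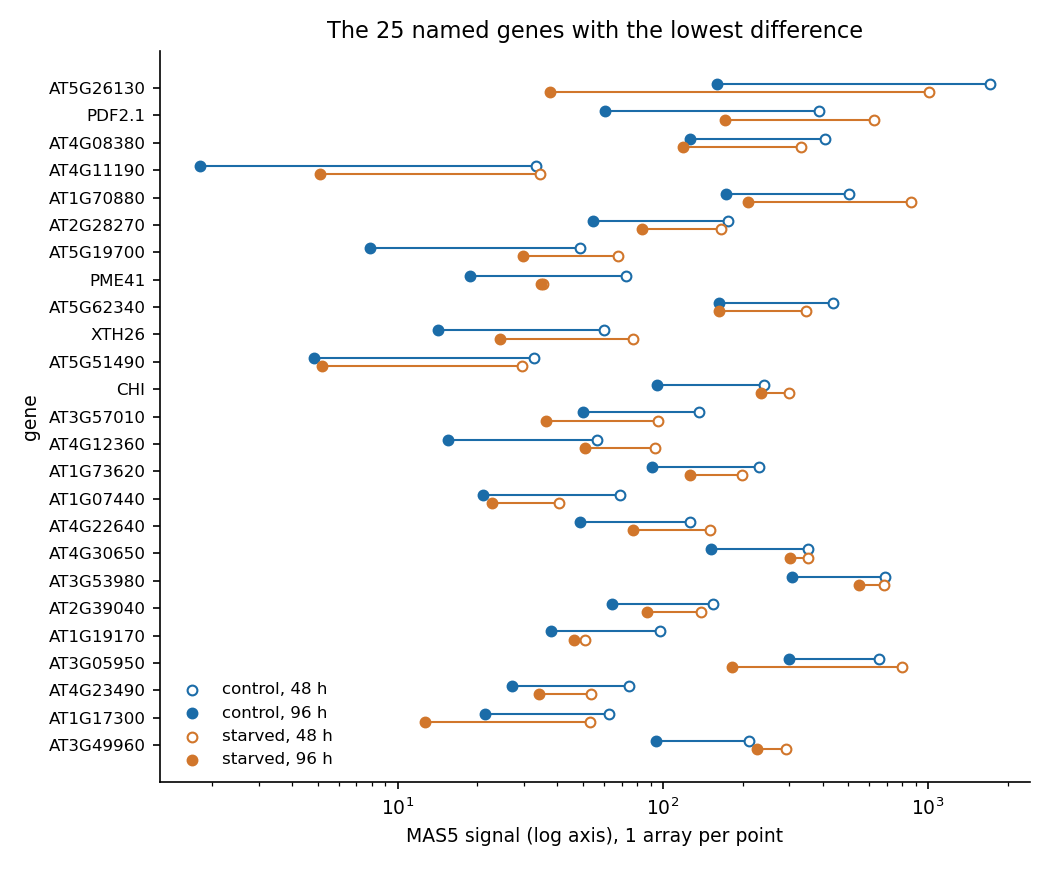
MAS5 signal (log axis) of the 25 named genes with the lowest control differences on the 4 arrays, open circles at 48 h and filled circles at 96 h, control in blue and starved in orange. All 25 were also lower at 96 h in starved roots, 11 of them at least 2-fold, and PME41 was nearly level there. On both control arrays 16 of the 25 passed the filter, and the others passed it only at 48 h.

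Class III peroxidases, secreted enzymes that make or consume hydrogen peroxide in the wall, were taken as a whole family of 73 genes after 3 of them had been seen among the lower transcripts. Of the family, 55 had a probe set and 40 were compared. Below 0 lay 30 of the 40. The 3 that led to the choice were at least 2-fold lower, beside 0.394% of named genes, and none was 2-fold higher, beside 1.16%, with a median of -0.21 in both solutions. The 3 were AT2G39040 at 154 and 64.1, AT3G49960 at 212 and 94.4, and AT1G49570 at 701 and 332. PRX52 was the highest, at 0.70, from 14.3 to 33.2, and had passed the filter only at 96 h. Several members had signals over 1000, a class in which the median of all probe sets was itself -0.22, and with cyclic loess scaling the family median was -0.16.

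The root hair list was split. It held 44 genes, of which 12 had a probe set and 11 were compared. The 5 extensin genes all lay above 0, between 0.44 and 1.51, and the other 6 all lay below 0, between -1.33 and -0.51. This division was made with results of these data known, so it only describes them. The extensin-like AT4G08380, which is not in the list, went the other way, at -1.58 in control and -1.375 in starved roots. The extensins were the hydroxyproline-rich wall glycoproteins such as AT3G54580, at 164 and 497 (1.51), and AT5G06630, at 456 and 859 (0.89). The others were EXPA7 at 132 and 84.5, EXPA18 at 135 and 87.9, XTH26 and the peroxidases AT1G30870, AT4G26010 and AT3G49960.

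The same split held in starved roots, where the extensins stood between 1.297 and 2.54 and the other 6 between -1.21 and -0.21. Extensins have long repeats, and 4 of the 5 probe sets are of the kind marked for cross-hybridisation, and how far they read each other's transcripts was not tested. The median of the list, -0.51, was -0.03 among the 10 members that passed the filter on both arrays, with 5 on each side of 0. The signal summed over the 12 probe sets was 4598 and 5279 in control roots and 4743 and 9122 in starved roots. No gene of the list of root tissue regulators had a probe set of its own, so the tissue label could not be checked with that list. Of the 11 root hair genes compared, 10 passed the filter on both control arrays, and XTH26 passed only at 48 h. All 11 were compared because they passed on at least 1 of these arrays, so this is no check of the label either.

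**Figure D5:**
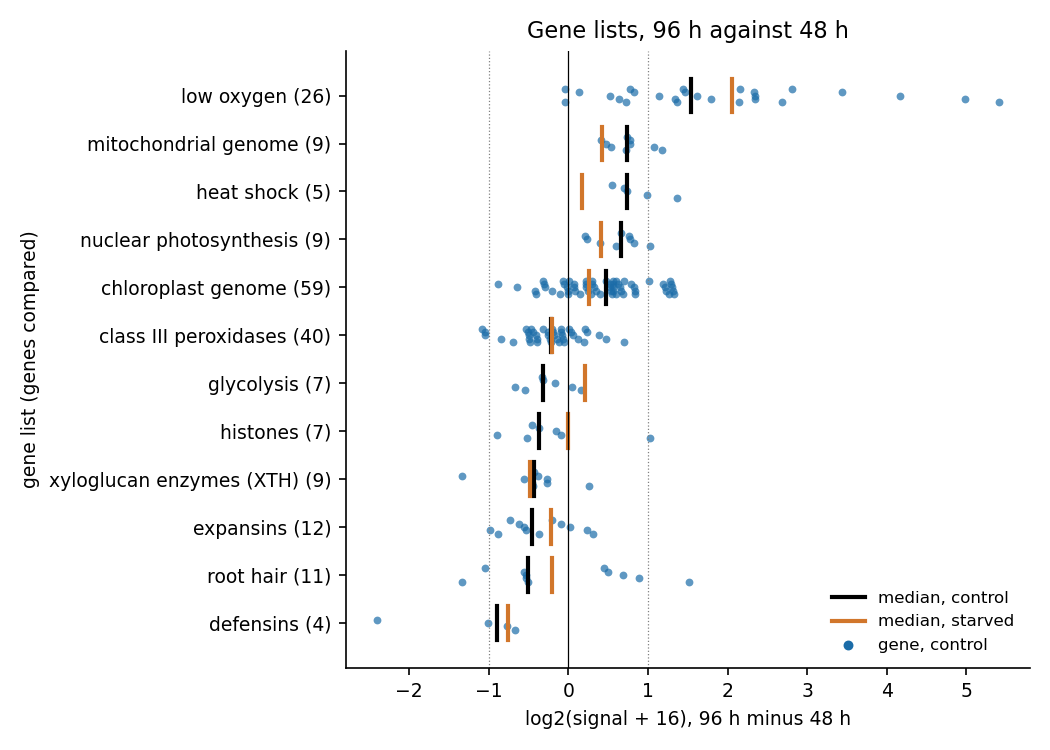
Control differences (log2(signal + 16), 96 h minus 48 h) of the genes of 12 lists and families, 1 point per gene, with the list median in black and the starved median in orange; the number of genes compared is in brackets and dotted lines mark 2-fold. Genes that passed the filter on 1 array only are included, among them all 5 heat shock genes. The low-oxygen list has the highest median, 1.54, the 4 defensins that passed the filter the lowest, -0.89 (0.0122 over all 13), and the glycolysis medians lie on opposite sides of 0.

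Of 7 histone genes compared, 6 lay below 0, none of them 2-fold, and the median was -0.37. HTB1, a histone H2B, read 172 and 85.0 (-0.89). HIS1-3, the linker histone known for its response to drought, was the only one past 2-fold, and was higher, at 34.6 and 86.9 (1.03). The 3 division genes compared lay between -0.32 and -0.04, and none differed 2-fold. In starved roots the histone median was close to 0, at -0.0014.

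A few single genes of other pathways stood above 2-fold. ICL, isocitrate lyase of the glyoxylate cycle, was barely detected at 48 h with 1.61 and read 40.9 at 96 h, a difference of 1.69. CCR2, a cinnamoyl-CoA reductase of lignin synthesis, read 24.3 and 86.5 (1.35), and TPS-CIN, a monoterpene synthase of roots, read 25.4 and 91.8 (1.38). ICL, CCR2 and TPS-CIN had passed the filter only at 96 h, so that lying above 0 followed from the filter. Of the 4 lignin and flavonoid genes compared CCR2 was the only one past 2-fold. JAL33, a jacalin-type lectin, read 498 and 1151 (1.18). The cytochrome P450 CYP71B26 read 49.0 and 124 (1.11), in a family with 4 of 8 members above 0.

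Heat shock genes were dim. All 5 compared passed the filter only on the 96 h array, so that lying above 0 was fixed by the filter and says nothing of the group. AT1G53540, a class I small heat shock protein, read 4.64 at 48 h and 37.0 at 96 h, and the others differed less.

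More of the higher than of the lower transcripts were past 2-fold in starved roots as well, a contrast that was not tested. Of the 176 probe sets at least 2-fold higher in control roots, 104 were at least 2-fold higher in starved roots too, which is 59.1% of the control list and 42.6% of the 244 in the starved list (1.7% of the probe sets compared there). All but 1 lay above 0 in starved roots, 175 in all. Of the 58 lower ones, 22 were at least 2-fold lower in starved roots, 37.9% of the control list and 16.5% of the 133 in the starved list (0.929%), and 56 lay below 0. A single probe set differed at least 2-fold in opposite directions. A limma fit over all 4 arrays, with solution and time as terms and the spread pooled across probe sets, called 627 probe sets higher (4.42%) and 502 lower (3.54%) at 96 h at a Benjamini-Hochberg adjusted p of 0.05. That fit includes the 2 control arrays and tests the mean of both solutions, so it gives no separate test of the control pair. It takes the 2 solutions as repeats of each time. Its spread is therefore how far the solutions differ in their change, and not the spread between plants.

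Among named genes at least 2-fold different in control roots, 25 lay within 1.5-fold of equality in starved roots, 16 of them higher and 9 lower in control. AT1G06620, a 2-oxoglutarate-dependent dioxygenase, read 34.1 and 134 in control roots (1.59) and 36.5 and 41.2 in starved roots (0.12). PME41 (AT4G02330), a pectin methylesterase, read 72.4 and 18.7 in control roots (-1.35) and 35.4 and 34.7 in starved roots (-0.02). On the control arrays PME41 had passed the filter only at 48 h. The chitinase gene AT2G43570 read 242 and 95.1 in control roots (-1.21) and 299 and 235 in starved roots (-0.33), and AT3G53980, a lipid transfer protein, read 685 and 306 (-1.12) against 679 and 550 (-0.30). With 1 array a group, whether the solutions differ in these genes was not tested.

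Probe sets that could not be tied to a single gene here included some of the widest differences. Among them 266965_at, which had passed the filter only at 96 h, read 2.16 and 432 (4.63). Further ones were 260869_at, at 53.3 and 1500 (4.45), and 252746_at, at 145 and 2284 (3.83). At the other end 254539_s_at read 233 and 40.5 (-2.14). All of these lay on the same side in starved roots, at 5.34, 4.58, 3.84 and -3.27.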

How the data were processed

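RNA from 4 root samples was measured on 1 ATH1 array each. Per the submitters' processing notes, MAS5 gave the deposited linear intensities; its version and options: not given in the sources used here. Every array had a 2% trimmed mean of 100.01, so the authors' values share a common level. Precision is limited by the number of arrays, and no batch is given in the labels.

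From these intensities, log2(signal + 16) was compared between the control arrays, without a test, over probe sets at or above the 40th percentile (29.6 at 48 h and 29.4 at 96 h) on at least 1 array, after 64 control probe sets were left out. A difference of 1 on the log2 scale counted as 2-fold. Genes were named where the platform annotation gave a probe set 1 gene (13513 of 22746 probe sets; 503 had several and 8730 none listed), with symbols updated through RefSeq TAIR10.1 (13436 matched); of several probe sets of a gene the brightest was used. Of the 29 gene lists with 627 genes, 115 genes had such a probe set and 93 were compared. Families were found by symbol or full name, and members that fit only by spelling were set aside after the data were seen, when the whole peroxidase family and an alternative limited to members with a signal of at least 100 were also added. Chloroplast genes were taken by their RefSeq chromosome and mitochondrial ones by annotated name, limited to names beginning with nad, cox, ccb, matR or orfX.

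Genes for the text were drawn from the 25 highest and 25 lowest, and the 5 highest and lowest with a signal of at least 200 on both arrays. Also drawn on were up to 6 members by size of each list or family with at least 3 measured. The 8 widest opposite differences between solutions and 5 unnamed probe sets at each end were added. Not all of these are named in the text, and the choice among them was made with the values in view. Any other member was picked with its values in view too. The members and lists were chosen with earlier results of these data known. Alternatives were other pseudocounts (1, 64), filters and scalings, every probe set of a gene, and limma across all 4 arrays with solution and time as terms. The scripts were tested on simulated data. Promoter sequences and motifs were not analysed here. Python 3.11.15, numpy 2.4.6, pandas 2.3.3, matplotlib 3.10.9, R 4.3.3 and limma 3.58.1 were used.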

Additional observations from a re-analysis of the deposited data

Results flagged for a closer look

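The genes below lay on opposite sides of 0 in the 2 solutions between 48 h and 96 h. With 1 array a group the difference between solutions was not tested. They were picked by the smaller of their 2 absolute differences, by which AT5G45060 ranked first and AT4G33720 last. AT4G33720, a CAP family protein, read 1231 and 1880 in control roots (0.60) and 1460 and 513 in starved roots (-1.48). AT5G05600, which encodes a jasmonate-inactivating oxidase, read 90.7 and 182 in control roots (0.89) and 90.8 and 51.7 in starved roots (-0.66). AT3G47010, a glycosyl hydrolase family protein, stood at 0.68 in control and -0.85 in starved roots, and AT5G45060, an immune receptor-like gene, at 0.70 and -0.78. AT1G30260 stood at 0.77 and -0.67, and AT5G51390 at 0.62 and -0.71. On the control arrays AT5G45060 and AT5G51390 had passed the filter only at 96 h.

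The reverse was seen for AT1G29660, a GDSL lipase family gene, at -0.76 in control and 0.64 in starved roots, and AT2G25510, at -0.62 and 0.72. The glycolysis list had a median of -0.32 in control and 0.21 in starved roots. The array's plant actin, GAPDH and ubiquitin controls also went opposite ways, with median ratios of 0.871 and 1.15. Whether this array difference had a part in the glycolysis medians was not tested.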

How the results depend on the processing

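The counts depended on the pseudocount and the filter. With a pseudocount of 1, 471 probe sets were at least 2-fold different in control roots, 308 higher and 163 lower, and 166 were higher and 48 lower in both solutions. With a pseudocount of 64 there were 93, 80 higher and 13 lower, with 59 and 7 in both solutions; higher ones made up 86.0% of the differences of 2-fold, against 75.2% with 16. Requiring the filter on both arrays left 38 lower in control roots and 66 higher in both solutions. A limma fit of solution and time on all 4 arrays, called at an adjusted p of 0.05, gave 627 probe sets higher and 502 lower at 96 h, in place of 105 and 23 at least 2-fold in both solutions counted with the filter on the control arrays alone. Without the filter the defensin median became 0.0122, over 13 genes of which 9 had been below the filter. The calmodulin-like median, -0.28, became 0.05 without the filter, and 13 medians of 6 lists within 0.1 of 0 changed side under some setting; the other medians kept their side of 0. Of the values for single genes, 1584 of 1630 moved by less than 1.5-fold, and the other 46 moved under a changed pseudocount. Lists with none left under a stricter filter, such as heat shock, have no value there. Signal limits the dim probe sets most, since their folds depend on the pseudocount. No pairing by replicate was possible, because each group is 1 array and all carry the same replicate number. Solution is a term of the limma fit, which takes the 2 solutions as repeats of each time.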

Other observations

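Several families known for responses to stress or to the medium differed little between 48 h and 96 h in control roots. The 24 UDP-glycosyltransferases, which attach sugars to small molecules, split 12 above and 12 below 0 with a median of -0.01, and UGT72E1, which glucosylates lignin precursors, was the highest at 139 and 259 (0.82). The 11 autophagy genes lay between -0.32 and 0.14 with a median of 0.04, while in starved roots ATG8H, which tags membranes for self-digestion, read 245 and 128 (-0.86). The 10 glutathione transferases had a median of -0.02 and the 5 WRKY factors 0.04.

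Of 4 carbon-shortage genes compared, none differed 2-fold in control roots. MCCA, an enzyme of leucine breakdown, read 241 and 240 in control roots, against 221 and 84.9 in starved roots. IVD, which acts in the same pathway, read 141 and 177 in control roots, and 130 and 68.8 in starved roots. AKINBETA1, a subunit of the energy-sensing kinase SnRK1, read 467 and 494 in control roots, and EXO, a secreted growth protein of the list, read 292 and 182 (-0.64). The difference between solutions was not tested. The clock gene GI, whose transcript follows the time of day, read 368 and 467 in control roots and 414 and 515 in starved roots, and the sampling hour is not given in the labels.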
